A study of Mus musculus with 6 samples.

Results

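Medium spiny neurons are the projection neurons of the striatum, and a set of signalling genes is known to be enriched in them. The set taken here lists 9 such genes, chosen by symbol, and 8 of them have a row among the 45777 genes of the deposited table: Rasgrp1, Rasgrp2, Rasd2, Ppp3ca, Ptpn5, Strn, Sh2d5 and Plxdc1. The antisense RNA Rgs7bp-as matched no row and was not analysed here, and the protein-coding gene Rgs7bp was not used in its place. All 8 genes passed the filter on low counts, as did 17874 genes in all.

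Striatal RNA was sequenced from outbred ICR mice at 6 weeks of age. One group of 3 offspring had sires given methylphenidate (15 mg/kg) and the other group of 3 had sires given saline (10 mL/kg). Both kinds of sire were injected under the skin at 6 weeks of age, for 21 days in a row, and were mated with females that received no drug. The offspring themselves are not described as treated. Methylphenidate blocks the dopamine and noradrenaline transporters. The labels list 2 females and 1 male in each group, but they do not tie the columns of the table to individual animals, so sex could not be used. They do not say how many sires or litters were used, so the p-values cover the spread among these 6 samples, and littermates cannot be told from unrelated mice. Libraries are named by group and column number, which is 2, 4 and 6 in the methylphenidate-sired group and 3, 4 and 5 in the saline-sired group. Total counts ran from 32650664 to 33799383 in methylphenidate-sired libraries and from 31360042 to 38844724 in saline-sired libraries, and the scarcest of the 8 genes had at least 828 counts in every library.

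Dopamine and glutamate inputs meet on medium spiny neurons, where dopamine acts through cyclic AMP and glutamate through calcium. Several of the genes described here act on these routes. Rasgrp1 and Rasgrp2 encode exchange factors that calcium and diacylglycerol regulate and that load Ras and Rap1 with GTP. Rasd2 encodes Rhes, a small G protein enriched in striatum. Ppp3ca encodes a catalytic subunit of calcineurin, the calcium-dependent phosphatase that acts on DARPP-32, and Ptpn5 encodes STEP, a tyrosine phosphatase that acts on ERK, Fyn and NMDA receptors. Striatin, the product of Strn, is a calmodulin-binding scaffold of the STRIPAK phosphatase and kinase complexes. Sh2d5 encodes an adaptor with an SH2 domain that binds the Rac regulator BCR, and Plxdc1 encodes a transmembrane protein also known from the endothelium of tumours.

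Promoters are shown for the exchange factor pair, whose groups overlapped for Rasgrp1 and did not for Rasgrp2, and for Rasd2, whose groups did not overlap. Each is the 250 bases before an annotated start, in the direction of the gene, from RefSeq on GRCm38.p6. Capitals mark the GC box (GGGCGG, either strand). The windows are chr8:75213694-75213943 (plus strand) for Rasd2, chr19:6399625-6399874 and chr19:6401455-6401704 (plus strand) for 2 starts of Rasgrp2, and chr2:117342878-117343127 (minus strand) for Rasgrp1. Both Rasgrp2 windows lie inside the annotated gene, which begins at 6398957, and the stretch before that base is not shown. First and second start refer only to these 2 Rasgrp2 windows.
Rasd2: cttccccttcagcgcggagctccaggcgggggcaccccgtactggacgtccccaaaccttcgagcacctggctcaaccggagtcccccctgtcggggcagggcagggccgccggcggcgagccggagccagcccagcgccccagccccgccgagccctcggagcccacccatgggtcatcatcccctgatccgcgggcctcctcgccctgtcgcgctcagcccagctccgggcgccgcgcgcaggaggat
Rasgrp2 first start: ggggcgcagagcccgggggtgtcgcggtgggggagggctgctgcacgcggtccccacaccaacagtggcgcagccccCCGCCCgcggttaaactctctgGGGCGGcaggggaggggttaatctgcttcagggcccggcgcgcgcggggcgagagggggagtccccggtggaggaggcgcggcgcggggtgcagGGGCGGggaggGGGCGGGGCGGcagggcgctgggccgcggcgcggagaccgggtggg
Rasgrp2 second start: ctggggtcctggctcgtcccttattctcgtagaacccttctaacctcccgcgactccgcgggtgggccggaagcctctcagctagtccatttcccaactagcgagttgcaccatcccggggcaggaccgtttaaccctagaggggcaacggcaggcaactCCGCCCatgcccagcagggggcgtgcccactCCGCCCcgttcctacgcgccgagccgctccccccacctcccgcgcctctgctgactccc
Rasgrp1: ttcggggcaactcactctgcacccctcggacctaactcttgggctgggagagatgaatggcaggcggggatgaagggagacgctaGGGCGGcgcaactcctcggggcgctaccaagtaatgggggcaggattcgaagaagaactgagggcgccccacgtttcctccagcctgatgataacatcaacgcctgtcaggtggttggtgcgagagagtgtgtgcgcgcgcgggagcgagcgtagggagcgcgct
The GC box occurred at 5 positions before the first Rasgrp2 start, some of them overlapping, at 2 before the second, at 1 before Rasgrp1 and at 0 before Rasd2. It is present in 32.74% of the 32851 promoter windows of the same length. The letters of the cAMP response element (TGACGTCA, either strand), present in 1.55% of all windows, were in none of the 4. GC content was 75.2% for Rasd2, 79.6% and 67.2% for the Rasgrp2 starts and 62.4% for Rasgrp1, against a median of 52.4% over all windows. RefSeq promoter entries matched 5 of the 8 genes.

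Levels differed widely among the 8 genes. Per kilobase of merged exons in GENCODE M21, Ppp3ca and Rasd2 were the most abundant, with mean levels of 212 and 209 CPM per kilobase in methylphenidate-sired libraries and 215 and 236 in saline-sired libraries. CPM are counts scaled to the TMM-adjusted library size. Rasgrp1 came next at 148 CPM per kilobase in methylphenidate-sired and 143 in saline-sired libraries, then Ptpn5 at 97.1 and 115. Strn was at 50.7 and 56.7 CPM per kilobase, and Sh2d5 at 30.4 and 39.8. Rasgrp2 was at 12.1 and 15.5, and Plxdc1 was lowest at 7.59 and 5.75. Ranges over merged exons overlapped between Ppp3ca and Rasd2 in both groups, at 201 to 221 and 197 to 215 CPM per kilobase in methylphenidate-sired and 195 to 228 and 220 to 247 in saline-sired libraries, and between no other neighbours in this order. The length used matters for the order. Over the length of the principal transcript, Ppp3ca stood alone at 966 CPM per kilobase in methylphenidate-sired and 977 in saline-sired libraries, and Rasgrp2 lay above Strn at 65.1 and 83.8. Plxdc1 was lowest by either length. By the principal transcript the ranges of Ptpn5 and Rasgrp1 overlapped in methylphenidate-sired libraries, at 160 to 196 and 152 to 169 CPM per kilobase.

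The comparison asked how striatal expression differed with the treatment of the sire. No gene of the set passed the edgeR quasi-likelihood test at an adjusted p under 0.05, where 0.0224% of the 17874 genes tested passed. At an unadjusted p under 0.05, 4 of the 8 were lower in the methylphenidate-sired group (3.95% of all genes were) and 1 was higher (5.07% of all genes). The groups did not overlap for 3 genes that lay lower, Rasgrp2, Sh2d5 and Rasd2 (7.01% of all genes), and for 1 that lay higher, Plxdc1 (7.84% of all genes). Log2 fold changes, methylphenidate-sired minus saline-sired, were negative for 6 of the 8 with a median of -0.17, against 53.0% negative and a median of -0.012 over all genes. These genes were chosen with earlier results of the same data known, so the counts describe them and support no statement about the set. In bulk tissue, fewer cells of a type and less RNA per cell cannot be told apart. DESeq2 called 2 of the 8, both lower, where it called 1.20% of the 14402 genes it gave an adjusted p and 0.264% were lower calls. The limma-voom test called 0 of the 8 and 0.0224% of all genes.

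**Figure D1:**
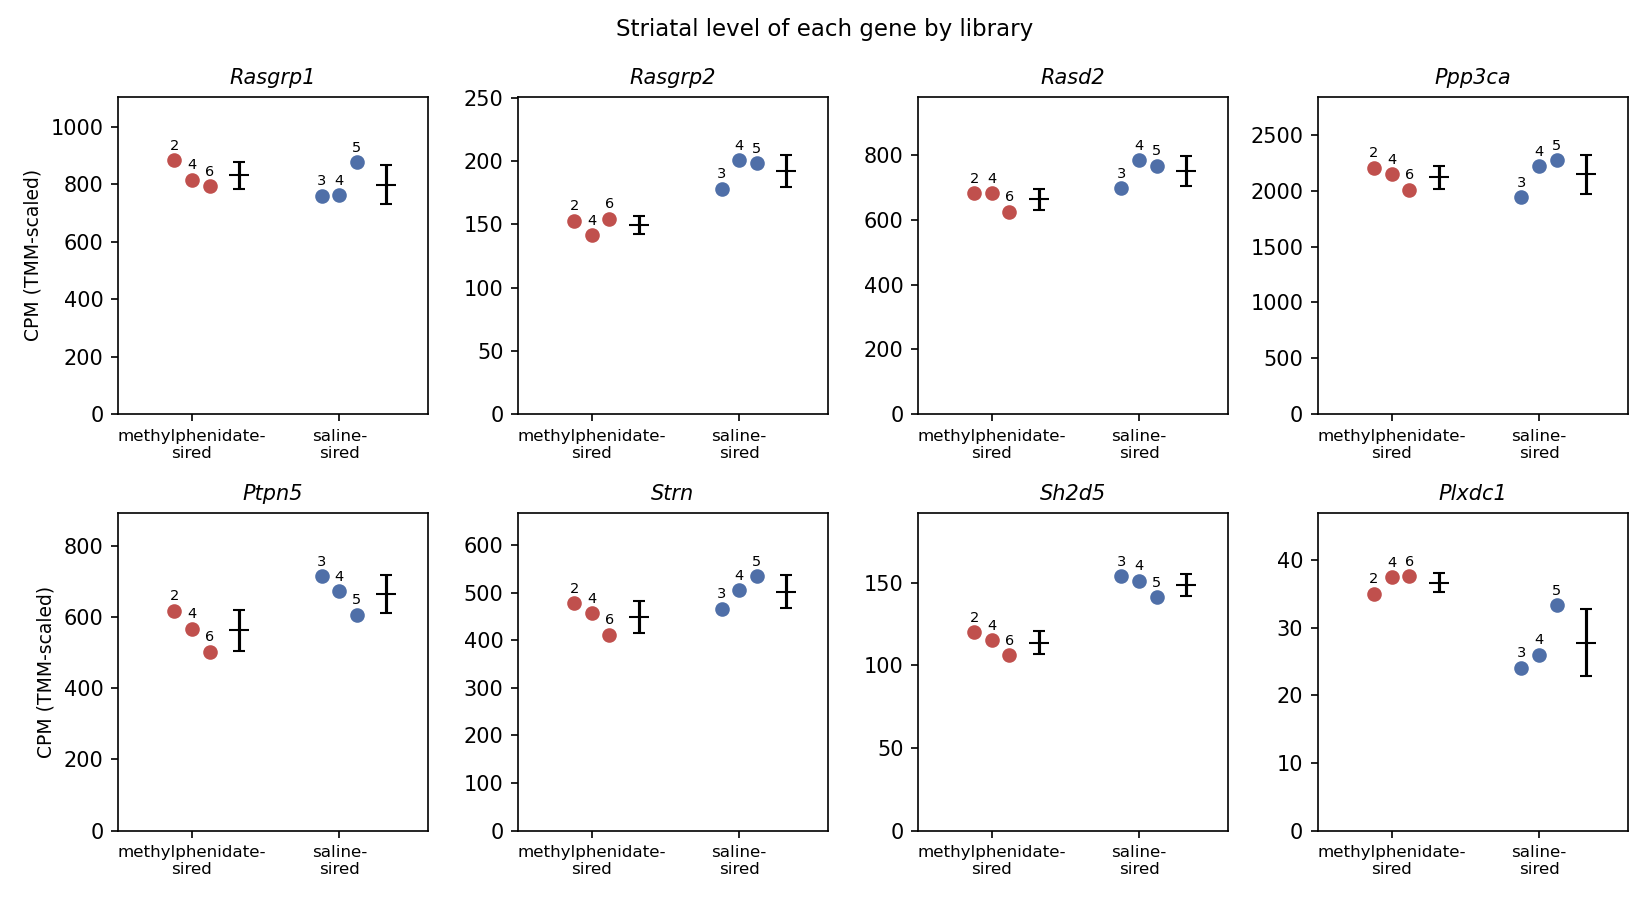
Level of each gene in CPM on TMM-scaled library sizes (y axis, from 0) in each library, with methylphenidate-sired libraries in red and saline-sired libraries in blue. Numbers mark the libraries, and black bars are the mean and SD of 3 libraries. Sh2d5 lies between 106 and 120 CPM in methylphenidate-sired libraries and between 141 and 154 in saline-sired libraries.

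Of the exchange factors, Rasgrp2 (Gene ID 19395, chromosome 19, 6398957 to 6415216), known as CalDAG-GEFI and acting mainly on Rap1, was at 153, 141 and 155 CPM in methylphenidate-sired libraries 2, 4 and 6, against 178, 201 and 198 CPM in saline-sired libraries 3, 4 and 5. Every methylphenidate-sired library lay below every saline-sired one. The log2 fold change was -0.36 (SE 0.069, n = 3 per group), or 0.778 times the saline-sired level, with an edgeR adjusted p of 0.353 and rank 33 of all genes by unadjusted p. DESeq2 called it (adjusted p = 0.00218). Its exons overlap those of the opposite-strand transcript Gm14965 over 265 nucleotides, or 2.14% of their merged length. The sources used here do not say whether the counting used strand. Gm14965 itself had 0 counts in each methylphenidate-sired library and 1 to 10 in saline-sired libraries.

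Rasgrp1 (Gene ID 19419, chromosome 2, 117279983 to 117342877), or CalDAG-GEFII, which acts on Ras, was at 885, 816 and 794 CPM in methylphenidate-sired libraries, against 760, 761 and 877 CPM in saline-sired libraries. The groups overlapped, since saline-sired library 5 lay among the methylphenidate-sired values. Its log2 fold change was 0.057 (SE 0.078, edgeR adjusted p = 0.858), and it depended on single libraries. It was 0.026 without methylphenidate-sired library 2 and 0.089 without number 6 of that group. Among the saline-sired libraries, it was 0.018 when library 3 was left out, 0.023 for library 4 and 0.14 for library 5. The difference between the fold changes of the 2 exchange factors was not tested.

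Rasd2 (Gene ID 75141, chromosome 8, 75213944 to 75224113), which encodes Rhes, was at 683, 682 and 625 CPM in methylphenidate-sired libraries, against 698, 785 and 767 CPM in saline-sired libraries. The groups did not overlap, but saline-sired library 3 lay close to methylphenidate-sired libraries 2 and 4. The log2 fold change was -0.18 (SE 0.070, edgeR adjusted p = 0.504).

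Among the phosphatase genes, Ppp3ca (Gene ID 19055, chromosome 3, 136669714 to 136937727) was at 2205, 2146 and 2006 CPM in methylphenidate-sired libraries, against 1942, 2218 and 2273 CPM in saline-sired libraries. Its methylphenidate-sired values lay within the wider range of the saline-sired values, and the log2 fold change was -0.017 (SE 0.076, edgeR adjusted p = 0.969). The sign turned when any 1 of methylphenidate-sired library 6, saline-sired library 4 or saline-sired library 5 was left out, with values up to 0.039.

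Ptpn5 (Gene ID 19259, chromosome 7, 47077795 to 47134026) was at 617, 567 and 503 CPM in methylphenidate-sired libraries, against 714, 672 and 607 CPM in saline-sired libraries. Saline-sired library 5 lay below methylphenidate-sired library 2, so the groups overlapped. Its log2 fold change was -0.24 (SE 0.093, edgeR adjusted p = 0.497).

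The scaffold gene Strn (Gene ID 268980, chromosome 17, 78649898 to 78737322) was at 479, 458 and 412 CPM in methylphenidate-sired libraries, against 467, 506 and 535 CPM in saline-sired libraries. The groups overlapped through saline-sired library 3. The log2 fold change was -0.16 (SE 0.080, edgeR adjusted p = 0.593), and -0.10 without either methylphenidate-sired library 6 or saline-sired library 5. A transcript of the gene Gm12079 is 99.59% identical to Strn over 244 nucleotides, where the merged exons of Strn span 8858. Counts from that short stretch are uncertain.

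The adaptor gene Sh2d5 (Gene ID 230863, chromosome 4, 138250411 to 138260968) was at 120, 115 and 106 CPM in methylphenidate-sired libraries, against 154, 151 and 141 CPM in saline-sired libraries. The groups were apart by more than the range within either. The log2 fold change was -0.39 (SE 0.066), or 0.765 times the saline-sired level, with an edgeR adjusted p of 0.343 and rank 13 of all genes by unadjusted p. DESeq2 called it (adjusted p = 0.000784). Its exons share 74 nucleotides, or 1.98% of their length, with the neighbouring kinesin gene Kif17, which was at 24.3 ± 4.39 CPM in the methylphenidate-sired and 28.4 ± 3.29 CPM in the saline-sired group (SD, n = 3 each, edgeR adjusted p = 0.683).

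Plxdc1 (Gene ID 72324, chromosome 11, 97923237 to 97986669) lay on the other side, at 35.0, 37.4 and 37.6 CPM in methylphenidate-sired libraries, against 24.1, 26.0 and 33.4 CPM in saline-sired libraries. The groups did not overlap, with saline-sired library 5 nearest to the methylphenidate-sired values. The log2 fold change was 0.40 (SE 0.12), or 1.32 times the saline-sired level, with an edgeR adjusted p of 0.456. Leaving out saline-sired library 3 gave 0.30, and leaving out saline-sired library 5 gave 0.56. Because the gene is also known from endothelium, the blood vessel markers are set beside it. Their summed level was 155 to 199 CPM in methylphenidate-sired and 152 to 190 CPM in saline-sired libraries, with none at 0 counts in any library. Of these 5 markers 0 passed the edgeR test, which Plxdc1 did not pass either, and 0.0224% of all genes passed. The part of vessels or of any other cell type in the Plxdc1 values was not tested.

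**Figure D2:**
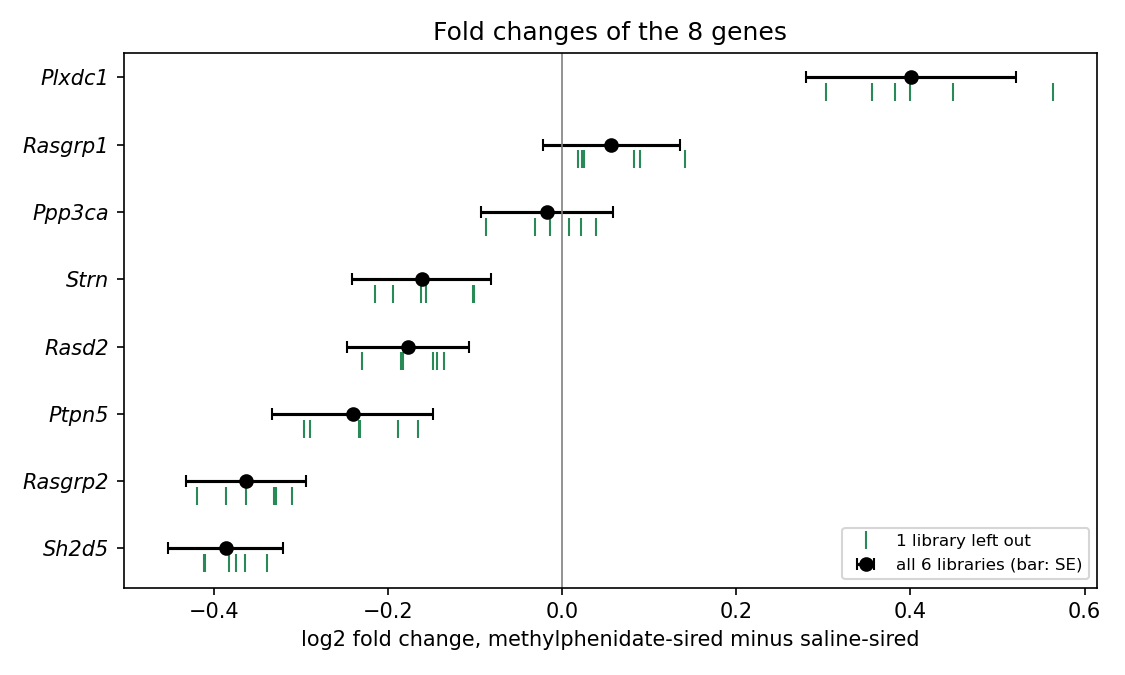
Log2 fold change of each gene, methylphenidate-sired minus saline-sired (x axis), from edgeR with all 6 libraries (black points, bars are SE) and with 1 library left out at a time (green ticks). Sh2d5 and Rasgrp2 stay at -0.31 or below and Plxdc1 at 0.30 or above, while Ppp3ca lies on both sides of 0.

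The striatal origin of the tissue was checked with other genes. All 14 shared medium spiny neuron markers, none of them among the 8 genes, were detected in every library, with Pde10a, a phosphodiesterase gene, the most abundant at 1673 ± 138 CPM in methylphenidate-sired and 1874 ± 110 CPM in saline-sired libraries (SD, n = 3 each). Log2 fold changes were negative for 14 of these 14 (median -0.17), 0 were called by edgeR, and 7 had an unadjusted p under 0.05. Over all genes, 53.0% were negative, 0.0224% were called by edgeR, and 3.95% were lower at an unadjusted p under 0.05. DESeq2 called 2 of the 14, Scn4b and Pde1b (1.20% of all genes it gave an adjusted p). The summed level of the 14 was 11388 to 13129 CPM in methylphenidate-sired and 13687 to 14565 CPM in saline-sired libraries. Direct-pathway markers summed to 575 to 669 CPM in methylphenidate-sired and 715 to 730 CPM in saline-sired libraries, with Drd1 the most abundant, and indirect-pathway markers to 1906 to 2042 and 2188 to 2249 CPM, with Penk the most abundant. In each of these lists 6 of 7 log2 fold changes were negative and 0 passed the edgeR test (2 and 3 at an unadjusted p under 0.05), while DESeq2 called Tac1 in the direct-pathway and Adora2a in the indirect-pathway list.

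Markers of cortical excitatory neurons lay on the other side. Their log2 fold changes were positive for 12 of 12 (median 0.86, 0 past the edgeR test and 9 at an unadjusted p under 0.05), and they summed to 1191 to 1367 CPM in methylphenidate-sired and 497 to 999 CPM in saline-sired libraries, with none at 0 counts. At an unadjusted edgeR p under 0.05, 5.07% of all genes were higher and 3.95% lower, and 53.0% of all log2 fold changes were negative. DESeq2 called 2 of the 12 cortical markers, Nptx1 and Neurod2 (1.20% of all genes it gave an adjusted p). Slc17a7, the vesicular glutamate transporter gene, was the most abundant of the 12, at 540, 570 and 616 CPM in methylphenidate-sired and 337, 163 and 438 CPM in saline-sired libraries. Choroid plexus markers summed to 36.7 to 85.1 CPM in methylphenidate-sired and 30.4 to 2091 CPM in saline-sired libraries, most of it Ttr in saline-sired library 3, and of these markers Kcne2 and Slc4a5 were at 0 counts in some library. Summed levels of the other lists overlapped between the groups: interneurons (Sst most abundant), ependyma (Rsph1), oligodendrocytes (Mbp), astrocytes (Slc1a3), microglia (Csf1r) and blood vessels (Flt1). Negative log2 fold changes were not particular to medium spiny neuron markers. They numbered 8 of 8 tested for choroid plexus, 6 of 6 for ependyma, 6 of 6 for oligodendrocytes (median -0.21) and 6 of 7 for interneurons. Counts were 4 of 5 for blood vessels, 3 of 5 for microglia and 3 of 6 for astrocytes. At an unadjusted edgeR p under 0.05 there were 7 for choroid plexus, 2 each for ependyma and interneurons, and 0 for the rest. The part of these tissue shares in the values of the 8 genes was not tested.

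**Figure D3:**
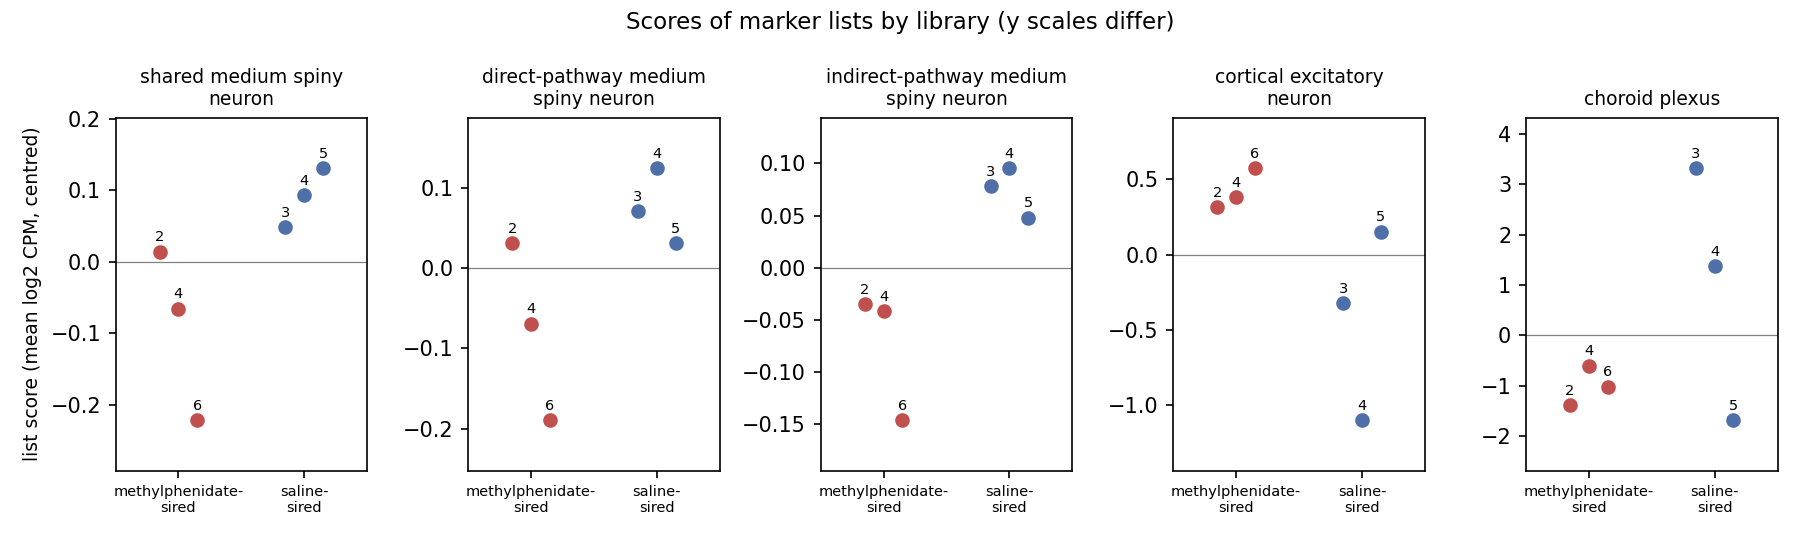
Score of each marker list in each library, as the mean log2 CPM of its markers centred over the 6 libraries (y axis, scales differ between panels), with methylphenidate-sired libraries in red and saline-sired libraries in blue, numbered by library. The medium spiny neuron scores are lowest in methylphenidate-sired library 6 (-0.22 for the shared list), and the cortical score is lowest in saline-sired library 4 (-1.10).

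Each gene was next set against the mean of the 14 shared markers in the same library, as the difference in log2 CPM. With 3 against 3 libraries the exact two-sided permutation test cannot go below p = 0.1, so no call was possible for any of the 8 genes compared. For Rasd2, Strn and Ptpn5 the groups overlapped. Rasd2 was at -0.11, -0.030 and 0.00052 in methylphenidate-sired libraries 2, 4 and 6, against -0.11, 0.015 and -0.056 in saline-sired libraries 3, 4 and 5, a difference of 0.0048 (SE 0.048, exact permutation p = 0.9). Strn differed by 0.020 (SE 0.034, exact permutation p = 0.8) and Ptpn5 by -0.060 (SE 0.094, exact permutation p = 0.6).

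Sh2d5 lay lower relative to the markers, at -2.62, -2.59 and -2.56 in methylphenidate-sired libraries, against -2.29, -2.36 and -2.50 in saline-sired libraries (difference -0.21, SE 0.064, exact permutation p = 0.1). Rasgrp2 differed by -0.18 (SE 0.098, exact permutation p = 0.2), and here the groups overlapped through methylphenidate-sired library 6. Over all genes tested, 1.13% lay lower without overlap on this scale. A further 3 of the 8 genes lay higher without overlap, as did 26.5% of all genes, and the markers' own median log2 fold change was -0.17. Rasgrp1 was at 0.27, 0.23 and 0.35 in methylphenidate-sired libraries, against 0.013, -0.029 and 0.14 in saline-sired libraries (difference 0.24, SE 0.061, exact permutation p = 0.1). Ppp3ca differed by 0.17 (SE 0.056, exact permutation p = 0.1) and Plxdc1 by 0.59 (SE 0.15, exact permutation p = 0.1).

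**Figure D4:**
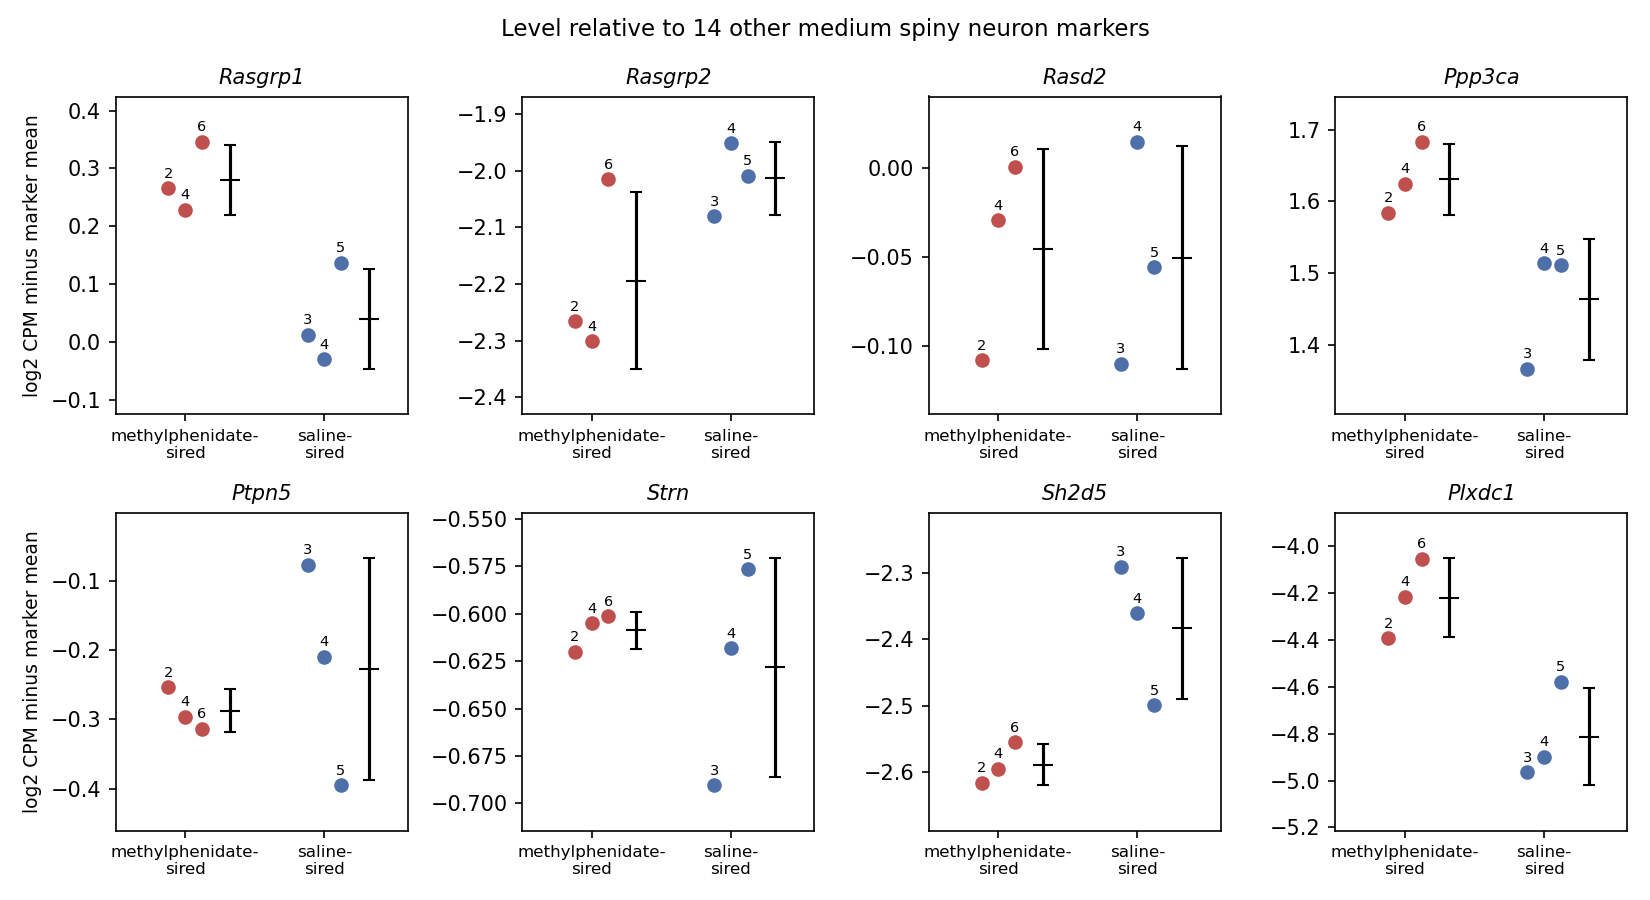
Log2 CPM of each gene minus the mean log2 CPM of 14 other medium spiny neuron markers (y axis, scales differ between panels) in each library, with methylphenidate-sired libraries in red and saline-sired libraries in blue, numbered by library, and black bars for the mean and SD of 3 libraries. Rasgrp1, Ppp3ca and Plxdc1 lie higher and Sh2d5 lower in the methylphenidate-sired libraries without overlap, and Rasd2 overlaps.

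Relatives and partners of the 8 genes were described through 8 lists, which hold 84 further genes that passed the filter. All lists but that of R7 RGS proteins also hold genes of the 8, and the list counts and medians below include these. edgeR called 0 of these 84 over all genes. At an unadjusted p under 0.05 there were 8 higher and 6 lower (5.07% and 3.95% of all genes), and DESeq2 called 2 (1.20% of the genes it gave an adjusted p). Among exchange factors and Ras or Rap1 partners, 9 of 18 log2 fold changes were negative (median 0.013), and 8 of 16 without Rasgrp1 and Rasgrp2. Rap1gap2 and Rap1gap, which both encode activators of the GTPase of Rap1, had the lowest p among the partners outside the 8 genes and opposite signs. Rap1gap2 was at 166, 178 and 179 CPM in methylphenidate-sired libraries, against 135, 109 and 144 CPM in saline-sired libraries (log2 fold change 0.43, SE 0.098, edgeR adjusted p = 0.398). Rap1gap was at 444, 475 and 413 CPM, against 513, 498 and 522 CPM in saline-sired libraries (-0.20, SE 0.068, edgeR adjusted p = 0.470). For both genes the groups did not overlap.

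Of Rhes and its relatives and partners, 3 of 10 were negative (median 0.029), or 2 of 9 without Rasd2 (median 0.032). Nos1ap, an adaptor of neuronal nitric oxide synthase, was at 0.30 on the log2 scale (SE 0.064, edgeR adjusted p = 0.376), and Gnai1, an inhibitory G protein alpha subunit gene, had 0.23 (SE 0.078, edgeR adjusted p = 0.470). DESeq2 called Rap1gap2 and Nos1ap (adjusted p = 0.00757 and 0.0147). Striatins and STRIPAK genes were negative in 8 of 18 (median 0.0020), and in 7 of 17 without Strn (median 0.0032). The PP2A catalytic subunit gene Ppp2cb was at 0.16 (SE 0.061).

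Tyrosine phosphatases of the STEP family and their substrates were negative in 4 of 10 (median 0.011), and in 3 of 9 without Ptpn5. Mapk3, which encodes ERK1, was at -0.13 (SE 0.074) and Ptpn7 at -0.16 (SE 0.12). Calcineurin subunits, regulators and targets were negative in 9 of 17 tested (median -0.017, the value of Ppp3ca itself). Without Ppp3ca they were negative in 8 of 16 (median -0.039). Ppp1r1b, the DARPP-32 gene, was at -0.22 (SE 0.085) and the transcription factor gene Nfatc2 at -0.21 (SE 0.097). The subunit gene Ppp3r2 lay below the filter. R7 RGS proteins and their partners were negative in 4 of 9 (median 0.0037), with Rgs9, which speeds the shut-off of G protein signals, at -0.27 (SE 0.083) and its partner Gnb5 at -0.20 (SE 0.057). Rgs9bp lay below the filter. Ppp1r1b and Rgs9 also belong to the shared medium spiny neuron markers above, so their values here are not separate observations. Rasgrf2, in the exchange factor list, is likewise among the cortical markers.

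In the list of Sh2d5 with BCR and its partners, 2 of 5 were negative (median 0.019). Bcr was at 373, 354 and 326 CPM in methylphenidate-sired libraries, against 397, 393 and 410 CPM in saline-sired libraries, without overlap (log2 fold change -0.19, SE 0.067, edgeR adjusted p = 0.475), and its relative Abr had 0.16 (SE 0.077, edgeR adjusted p = 0.583). With Plxdc1, 3 of 5 were negative (median -0.0025), its relative Plxdc2 at -0.099 (SE 0.079) and Serpinf1, which encodes the ligand PEDF, at 0.20 (SE 0.24). The median over all genes tested was -0.012 on the same scale.

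Several of these partner values moved by over 1.5 times when 1 library was left out. Leaving out methylphenidate-sired library 2 gave 0.11 for Serpinf1, -0.077 for Mapk3 and -0.27 for Ptpn7. Leaving out number 4 of that group gave 0.37 for Serpinf1, -0.049 for Plxdc2 and -0.10 for Ptpn7, and leaving out number 6 gave -0.11 for Ptpn7 and -0.14 for Nfatc2. When saline-sired library 3 was dropped, Plxdc2 had -0.16. For number 4 of that group the values were 0.41 for Serpinf1, 0.099 for Abr, -0.085 for Mapk3 and 0.15 for Gnai1, and for number 5 they were 0.013 for Serpinf1, 0.25 for Abr, -0.045 for Plxdc2 and -0.092 for Ptpn7. The median of the R7 RGS list was -0.12 with saline-sired library 3 left out and 0.084 with number 5 left out, and the medians of the other 7 lists ran between -0.045 and 0.073, 6 of them with both signs.

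For each of the 8 genes, the gene with the most similar profile was taken by Pearson r of log2 CPM over the 6 libraries, among 10225 genes whose log2 CPM averaged at least 3. With so few libraries, which share scaling, and so many genes, high values are found for every profile, so these are descriptions. They were Setd6 for Rasgrp2 (r = 0.997), Cbx5 for Rasgrp1 (r = 0.993), Slco5a1 for Rasd2 (r = 0.992), Trappc11 for Ppp3ca (r = 0.992), Smim14 for Ptpn5 (r = 0.991), Mprip for Strn (r = 0.992), Cnnm3 for Sh2d5 (r = 0.992) and Cep170 for Plxdc1 (r = 0.996). The 8 genes themselves, predicted genes (Gm with digits), names ending in Rik and pseudogenes were left out of this search.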

How the data were processed

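The deposited table holds whole-number read counts per RefSeq gene, which the authors did not normalize, per the file headers and the values. Per the submitters' processing notes, bcl2fastq 2.20.0, Trimmomatic, HISAT2 2.1.0 and StringTie 2.1.3b were used with mm10. Their order and settings, strandedness, the version of Trimmomatic and the handling of multiply mapped reads: not given in the sources used here. Columns named "cont" were taken as the saline-sired and columns named "father" as the methylphenidate-sired group. The 12 FPKM and TPM columns were not used. Counts were tested with edgeR 4.0.16 (R 4.3.3; TMM, filterByExpr, quasi-likelihood F test, Benjamini-Hochberg over all genes, threshold 0.05), with SE derived from the fold change and F. DESeq2 1.42.0, limma-voom (limma 3.58.1), other scalings, no filter and leaving out each library were alternatives. The fit was tested on simulated data. Log2 CPM used a prior count of 2. Coordinates and promoters came from RefSeq (GRCm38.p6, the assembly of mm10), with 45679 of 45777 Gene IDs matched, and exons from GENCODE M21. Near-identical copies were sought with blastn 2.17.0 (at least 95% identity over 200 nucleotides). Named genes are the 8 genes, the 2 others of lowest p in each list (1 of these is not reported here), and the closest profile of each. Genes and lists were chosen with earlier results of these data known.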

Additional observations from a re-analysis of the deposited data

How the results depend on the processing

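Of 88 refitted fold changes of the 8 genes, 83 kept their direction and side of the threshold, 2 passed under DESeq2 and 3 changed sign. DESeq2 called 173 genes (38 lower, 135 higher) and 2 of the 8, Rasgrp2 (-0.36) and Sh2d5 (-0.38). Of the lists it called 2 genes with exchange factors (Rasgrp2 and Rap1gap2), 1 with Rhes (Nos1ap) and 1 with Sh2d5 (Sh2d5 itself). Rasgrp2 and Sh2d5 are thus counted again here. The cause of the gap between DESeq2 and edgeR was not tested. With 1 library left out, edgeR called 1 to 4 genes (1 to 4 lower, 0 to 1 higher) and 0 of the 8, and the Ppp3ca log2 fold change ran from -0.087 to 0.039. Over these edgeR refits the lowest adjusted p was 0.0892 for Plxdc1, 0.0904 for Sh2d5 and 0.148 for Rasgrp2, each without saline-sired library 5. The highest was 0.818 for each of them, so the adjusted p depended strongly on which library was left out. Relative to the shared markers, leaving out 1 library gave -0.025 to 0.037 for Rasd2, -0.011 to 0.046 for Strn and -0.14 to 0.015 for Ptpn5. Against direct- and indirect-pathway markers Rasd2 had -0.027 and Strn -0.012. No scaling changed the sign of any of the 8 fold changes. Non-overlapping genes of the 8 numbered 3 lower and 1 higher with DESeq2 size factors (6.87% and 8.05% of all genes), and 4 and 1 with library totals only (8.72% and 6.39%), settings chosen after seeing the data. No paired analysis was possible because the columns carry neither the replicate numbers nor the sex of the labelled animals. Rasgrp2 and Sh2d5 had at least 3591 counts in every library, and Plxdc1 at least 828.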
